A study of Homo sapiens with 11 samples.

Results

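MiR-320a, miR-320b, miR-320c, miR-320d, miR-484 and miR-877-5p are human miRNAs grouped here because textbook accounts describe their precursors, or those of their family, as made without the nuclease Drosha. The members were the rows whose miRNA name equals one of these names, which gave 9 rows for 6 of the 2588 mature miRNAs listed on 2813 rows. Their levels were measured by small RNA-seq in parental, untreated cells of 6 solid tumour-derived cell lines, namely A549 (lung), ES2 (ovary), MV3 (melanoma), PANC1 (pancreas), BE(2)C (neuroblastoma) and HepG2 (liver). A549, ES2, MV3, BE(2)C and HepG2 had 2 libraries each and PANC1 had 1, so that PANC1 values have no replicate error. A NEXTflex kit with 50 ng of RNA as input was used for A549, ES2, MV3 and PANC1, whereas BE(2)C and HepG2 libraries came from Novogene. Between these sets the line and its preparation cannot be told apart, and contrasts were made only within each. Cells were harvested 48 h after seeding, except that BE(2)C is given as 24 h in the protocol and as 48 h in the sample characteristics. The study's methods call the libraries of a line biological replicates.

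Most miRNAs are cut from a long primary transcript, first by Drosha with DGCR8 in the nucleus and then by Dicer in the cytoplasm, and the mature strand guides Argonaute proteins to mRNAs through its seed. Some precursors skip the first cut. The miR-320a precursor starts at the first transcribed base, carries a 7-methylguanosine cap, leaves the nucleus through exportin 1 and is cut by Dicer, and miR-484 is described in a like manner. MiR-877-5p comes from a mirtron, a short intron that is released by splicing and debranched into a hairpin that Dicer accepts. How the precursors were processed was not measured in these libraries, whose tables list mature miRNAs only, and miR-320b, miR-320c and miR-320d were included as relatives of miR-320a in sequence.

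The mature sequences show how alike the miR-320 members are. They were taken from RefSeq (GRCh38.p14), where 5 of the 6 names were matched, miR-320a being named only. Capitals mark the seed, bases 2 to 8 counted from the 5′ end. MiR-320e is shown for comparison as a relative with a shifted start.
hsa-miR-320b: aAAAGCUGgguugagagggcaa
hsa-miR-320c: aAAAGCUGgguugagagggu
hsa-miR-320d: aAAAGCUGgguugagagga
hsa-miR-320e: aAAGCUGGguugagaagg
hsa-miR-484: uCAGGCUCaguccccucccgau
hsa-miR-877-5p: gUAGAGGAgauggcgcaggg

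MiR-320b, miR-320c and miR-320d share the seed and differ at the 3′ end. Counted from the 5′ end of miR-320b, the first 19 bases are shared with miR-320c, which then has the substitution C20U, and the first 18 with miR-320d, which has G19A. MiR-320e starts 1 base later, so that its seed differs, and has G17A in the numbering of miR-320b. Among 2370 mature names in the reference, 4 carry the seed of miR-320b (miR-320b, miR-320c, miR-320d and miR-4429), 3 that of miR-484 (with miR-3155a and miR-3155b) and 1 that of miR-877-5p. MiR-320a was not matched in the reference, so its absence from these counts says nothing about its seed. A read trimmed at its 3′ end can match several miR-320 members, and how such reads were counted is not given in the sources used here. The division of reads among miR-320a to miR-320d is therefore uncertain, whereas their sum is less exposed.

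The loci (hg38, annotated in GENCODE v44 or RefSeq) differ in their surroundings. MIR320A lies on chromosome 8, 22244962 to 22245043, on the minus strand and within no other gene, 90 bp from the annotated start of POLR3D on the opposite strand. MIR484 lies on chromosome 16, 15643294 to 15643372, on the plus strand in the UTR of 1 NDE1 transcript, whose annotated start is 27 bp upstream. MIR877 lies on chromosome 6, 30584332 to 30584417, on the plus strand, and fills an intron of ABCF1 exactly in 4 of 4 overlapping transcripts. The last arrangement is that of a mirtron, a hairpin bounded by both splice sites.

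Each of the minor miR-320 members has a pair of loci. MIR320B1 lies on chromosome 1, 116671746 to 116671817, outside genes, and MIR320B2 on the same chromosome, 224257040 to 224257110, in an NVL intron on the same strand. MIR320C1 and MIR320C2 lie on chromosome 18, 21683518 to 21683589 and 24321675 to 24321746, antisense to introns of ABHD3 and OSBPL1A. MIR320D1 lies on chromosome 13, 40727816 to 40727887, and MIR320D2 on chromosome X, 140926160 to 140926231, both outside genes. The rows of both loci were summed, since reads of one mature sequence cannot be placed at a locus. The first row of miR-320b held between 46.3% and 58.3% of its reads in 9 libraries and 66.7% and 70.7% in HepG2. For miR-320c the first row held between 25% and 52.0%, and for miR-320d between 36% and 100%, with the fewest reads again in HepG2.

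Reads assigned to miRNAs ranged from 1173902 (MV3 replicate 1) to 12137452 (HepG2 replicate 2). Levels are given as CPM, counts per 1000000 reads assigned to all listed miRNAs of the library, recomputed from whole reads. The floor, the 3 reads that a count of 0 allows, was 2.56 CPM for the shallowest library and 0.247 CPM for the deepest, and intervals and floors cover counting error only. Between the libraries of a line the chi-square per degree of freedom was 8.53 (ES2) to 849 (BE(2)C), above sampling noise. Since CPM is a share, it falls when a few other miRNAs rise: TMM factors (trimmed mean of M-values, a scaling on the bulk of miRNAs) were 0.166 and 0.217 for HepG2 and between 1.02 and 1.87 for the other 9 libraries. Of the tissue markers, miR-148a-3p and miR-192-5p were high in HepG2 (739220 and 15859 CPM) and miR-218-5p and miR-9-5p in BE(2)C (78501 and 16715 CPM). The other neuronal markers, miR-375 and miR-124-3p, had 5619 and only 22.9 CPM in BE(2)C. However, miR-122-5p, the main liver miRNA, had a mean of 57.0 CPM in HepG2 against 415 CPM in BE(2)C, and miR-194-5p, also listed for liver, 230 CPM against 1891 CPM in A549. The melanocytic miR-211-5p had 0 reads in every library, and miR-204-5p had a mean of 1.5 CPM in the melanoma line MV3 against 55.6 CPM in BE(2)C. Of the blood cell markers, miR-142-3p had a mean of 306 CPM in ES2 and miR-451a 173 CPM in BE(2)C, while miR-144-3p, miR-223-3p and miR-150-5p reached at most 1.09 CPM. The epithelial miR-200b-3p had 1248 CPM in HepG2, 813 CPM in A549 and 93.2 CPM in PANC1, whereas miR-200c-3p reached at most 79.6 CPM (HepG2) and miR-141-3p 4.50 CPM (ES2).

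MiR-320a was the leading member in every library and miR-877-5p ranked far below. In total the 6 members held between 0.0398% (HepG2 replicate 1) and 0.564% (BE(2)C replicate 1) of the reads. By level, miR-320a stood between places 28 and 37 among the miRNAs of 10 libraries and at place 65 in PANC1. MiR-484 stood between places 85 and 133, and miR-877-5p between 211 and 428.

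MiR-320a, the founding member of its family, had 4956 and 4588 CPM in BE(2)C and 4676 and 4668 CPM in MV3. It had 3188 and 3271 CPM in ES2 and 2415 and 3278 CPM in A549. In PANC1 it had 1151 CPM, and in HepG2 356 and 434 CPM. BE(2)C overlapped with MV3 and ES2 with A549, whereas PANC1 and then HepG2 lay below each library of these lines. The position of HepG2 depended on scaling, since with TMM factors its mean was 2072 and PANC1 was the lowest line with 652. Among the 4 NEXTflex lines PANC1 was lowest for miR-320a on CPM and with TMM factors, DESeq2 size factors, quantile normalization and totals without miR-21-5p and miR-148a-3p.

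The minor members followed the same outline at far lower levels. MiR-320b had 262 and 212 CPM in BE(2)C, 140 and 160 CPM in A549 and 128 and 129 CPM in MV3. It had 89.0 and 92.4 CPM in ES2, 30.8 CPM in PANC1 and 7.58 and 11 CPM in HepG2. No neighbouring lines overlapped, and A549 stood above MV3 and ES2, unlike for miR-320a.

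MiR-320c had 49.4 and 63.9 CPM in MV3, 45.2 and 42.7 CPM in BE(2)C and 32.2 and 43.7 CPM in A549. It had 26.5 and 25.3 CPM in ES2, 9.23 CPM in PANC1 and 1.01 and 0.989 CPM in HepG2, the latter from 12 reads in each library. MV3 was highest on CPM, and BE(2)C and A549 overlapped. With TMM factors the means of A549, MV3 and BE(2)C were 35.6, 30.6 and 28.8 with overlapping libraries, so that none of these lines stood apart.

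MiR-320d, the shortest of the members, had 23.0 and 25.8 CPM in MV3, 18.7 and 15.5 CPM in A549 and 15.6 and 14.4 CPM in BE(2)C. It had 13.2 and 13.5 CPM in ES2, 7.69 CPM in PANC1 and 0.168 and 0.494 CPM in HepG2. The HepG2 libraries held 2 and 6 reads, the former under the floor of 3 reads. A549 and BE(2)C overlapped, and HepG2 was the lowest line on CPM and also with TMM factors, where its mean was 1.65 against 4.36 in PANC1.

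MiR-484, the member whose hairpin lies just inside an annotated transcript start, was spread in a different way. It had 498 and 489 CPM in MV3, 407 and 426 CPM in ES2 and 325 and 517 CPM in BE(2)C. PANC1 had 336 CPM, A549 189 and 153 CPM, and HepG2 28.9 and 34.2 CPM. MV3, ES2 and PANC1 all lay within the range of the BE(2)C libraries, which were 1.59-fold apart. With TMM factors the span between the highest and lowest line shrank from 3.97 to 0.96 on the log2 scale, A549 and HepG2 then being lowest with 162 and 166 and overlapping libraries.

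MiR-877-5p, the mirtron product, had 33.2 and 32.6 CPM in BE(2)C, 21.9 CPM in PANC1 and 11.4 and 13.1 CPM in ES2. It had 8.52 and 11 CPM in MV3, 3.96 and 6.34 CPM in HepG2 and 2.25 and 2.91 CPM in A549, where each library held 6 reads. Libraries of neighbouring lines did not overlap, and PANC1, the lowest NEXTflex line for miR-320a to miR-320d, was the highest of them for miR-877-5p, except after quantile normalization, where ES2 was higher (14.9 against 13.4). A549 was lowest on CPM and under TMM factors, DESeq2 size factors, quantile normalization and totals without miR-21-5p and miR-148a-3p. The place of HepG2 moved furthest, from the fifth line on CPM to the highest with TMM factors (26.5, against 21.6 in BE(2)C).

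**Figure D1:**
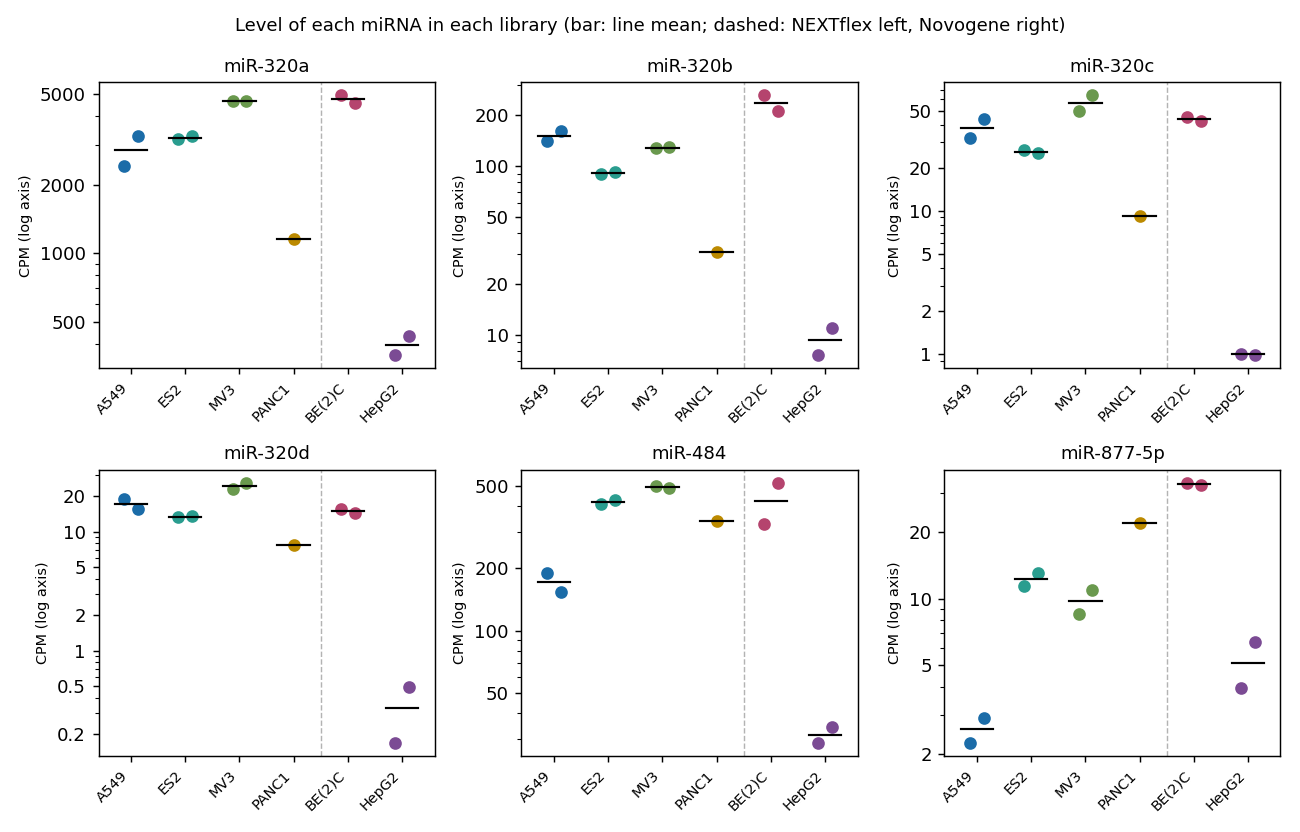
CPM on a log axis of each of the 6 miRNAs in each library (points), with the line mean as a bar and the NEXTflex lines left of the dashed line and the Novogene lines right of it. PANC1 lies below the other NEXTflex lines for miR-320a (1151 CPM) but above them for miR-877-5p (21.9 CPM), and HepG2 is lowest on this scale for each miRNA but miR-877-5p, with TMM factors for miR-320d only.

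Ratios of reads between members within a library do not depend on a factor applied to the whole library. Between NEXTflex and Novogene lines a difference in such a ratio cannot be told apart from the preparation. For each miR-877-5p read, A549 held 84.2 and 52.5 miR-484 reads, MV3 58.5 and 44.5 and ES2 35.6 and 32.6. PANC1 held 15.4, BE(2)C 9.79 and 15.9, and HepG2 7.30 and 5.39. A549 and MV3 overlapped, as did PANC1 with BE(2)C, whereas HepG2 lay below and ES2 between the groups. In A549 the ratio rests on 6 miR-877-5p reads in either library.

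MiR-320 family reads (miR-320a to miR-320d summed) for each miR-484 read numbered 13.8 and 22.9 in A549 and 3.56 in PANC1. They were 8.15 and 7.98 in ES2, 9.78 and 10.0 in MV3, 16.2 and 9.40 in BE(2)C and 12.6 and 13.1 in HepG2. A549 was thus rich in the family relative to miR-484, with only a BE(2)C library (replicate 1) between its libraries, and PANC1 had the lowest ratio of all 11 libraries. BE(2)C replicate 1 had the higher miR-320a but the lower miR-484 level of the BE(2)C libraries, so that its members did not differ by a common factor between replicates.

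**Figure D2:**
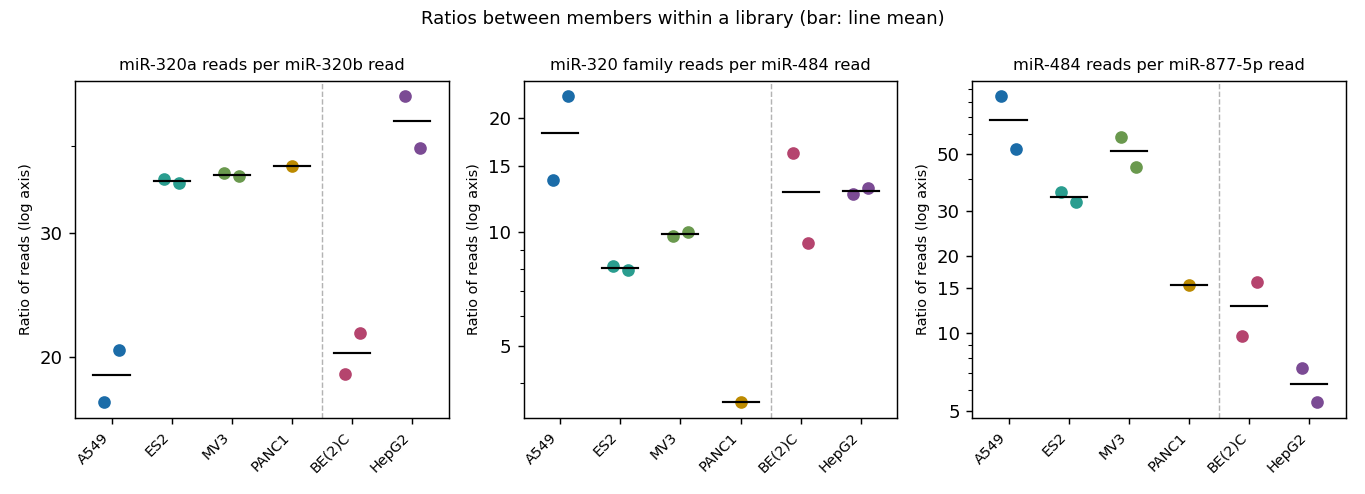
Ratio of reads on a log axis in each library (points, with the line mean as a bar): miR-320a to miR-320b, miR-320 family to miR-484, and miR-484 to miR-877-5p. A549 and BE(2)C form the low group in the first panel (17.2 to 21.7) and PANC1 is lowest in the second (3.56). The third falls from A549 (84.2 and 52.5) to HepG2 (7.30 and 5.39), which differ in preparation too.

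The make-up of the miR-320 family also differed between lines. MiR-320a accounted for between 92.7% and 97.6% of family reads. The share of miR-320b was 5.38% and 4.58% in A549 and 4.96% and 4.36% in BE(2)C, against 2.08% to 2.72% in the other 7 libraries. The highest of the latter was ES2 replicate 2 with 2.72% (95% Wilson interval 2.38% to 3.10%). It lay below the lowest of the former, BE(2)C replicate 2 with 4.36% (4.14% to 4.59%). These intervals cover counting error only and do not measure a difference between lines. Those of the BE(2)C libraries did not overlap each other, replicate 1 having 4.75% to 5.18%. The high shares were found in a NEXTflex line (A549) and a Novogene line (BE(2)C). A part of the preparation in this share was not tested, and the division of reads among miR-320a to miR-320d is uncertain.

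MiR-320c and miR-320d were smaller parts. MiR-320c made up 1.24% and 1.25% of family reads in A549 and 1.01% and 1.31% in MV3, and between 0.743% and 0.878% in ES2, PANC1 and BE(2)C. In HepG2 it made up 0.277% and 0.221%. The share of miR-320d was 0.0461% and 0.111% in HepG2 and between 0.295% and 0.719% elsewhere. HepG2 was lowest in both, with intervals of counting error (0.158% to 0.483% and 0.127% to 0.386% for miR-320c) below the point value of every other library.

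**Figure D3:**
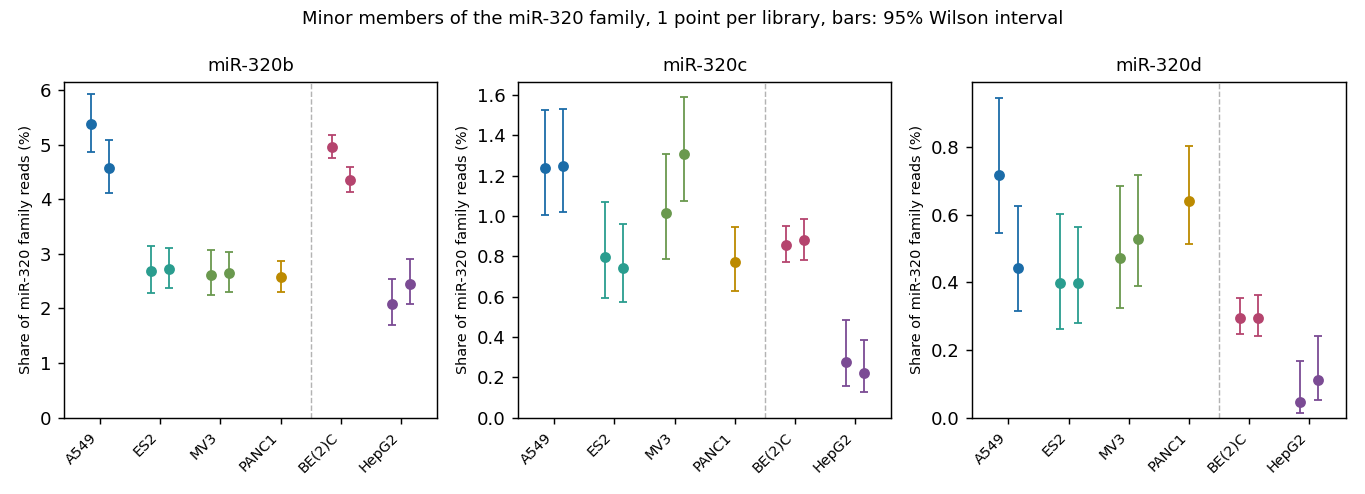
Share of miR-320b, miR-320c and miR-320d in the summed miR-320 family reads, in percent from 0, in each library (points) with 95% Wilson intervals. MiR-320b lies between 4.36% and 5.38% in A549 and BE(2)C and between 2.08% and 2.72% in the other libraries, and miR-320c and miR-320d are lowest in HepG2.

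Whether a member differed among lines was tested with limma on log2(CPM + 1). All 6 members passed across the 6 lines, where 99.3% of the 546 tested miRNAs did, so that this count says little about them. The adjusted p (limma F test) lay between 2.52e-06 for miR-320a and 0.000236 for miR-877-5p. For miR-484 it rose to 0.052 (limma F test) when miR-21-5p and miR-148a-3p were left out of the library totals. Within the 4 NEXTflex lines again 6 of 6 members passed, against 85.4% of 453 tested. MiR-320b had the lowest adjusted p there (0.000704, limma F test) and miR-320d the highest (0.0499, limma F test), and the latter missed the threshold when any single NEXTflex library was left out, with a range of 0.0661 to 0.177. EdgeR and DESeq2 each called 4 of the 6 members in these lines, with adjusted p of 0.0656 and 0.0988 for miR-320d and of 0.127 and 0.143 for miR-877-5p.

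Spread among lines was described next to that of all tested miRNAs. The SD of the 6 line means on log2(CPM + 1) had a median of 1.51 over the members and 1.99 over all 546 tested. MiR-320c was the most variable member (1.83) and miR-877-5p the least (1.2), which places them at ranks 316 and 498 from the most variable. Over the 4 NEXTflex lines the medians were 0.93 and 1.37, miR-877-5p now being the most variable member (1.13) and miR-320d the least (0.65).

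A549 was first compared with ES2. MiR-484 and miR-877-5p were lower in A549 and miR-320b was higher, so that 3 of the 6 members were called where 50.5% of all tested miRNAs were, 23.6% as higher in A549 and 26.9% as higher in ES2. MiR-877-5p differed by -1.89 ± 0.32 (log2, SE; adjusted p 0.00182, limma). MiR-484 differed by -1.29 ± 0.24 (log2, SE; adjusted p 0.00304, limma). Libraries did not overlap for either, and the direction held under each of the scalings tried, although miR-484 was not called with totals without miR-21-5p and miR-148a-3p (-0.26, adjusted p 0.418, limma). MiR-320b was higher in A549 by 0.72 ± 0.23 (log2, SE; adjusted p 0.0326, limma), a call lost without any 1 of the A549, ES2 or MV3 libraries (adjusted p 0.0516 to 0.136, limma). MiR-320a differed by -0.20 ± 0.18 on CPM and by 0.12 with TMM factors, and had no stable direction. The median log2 difference was 0.07 over the members and -0.17 over all tested.

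Against MV3, the melanoma line, A549 had lower levels of miR-320a, miR-484 and miR-877-5p on CPM. These 3 of 6 calls stand beside 57.3% of all tested, 20% as higher in A549 and 37.4% as higher in MV3. MiR-877-5p differed by -1.58 ± 0.32 (log2, SE; adjusted p 0.0043, limma) and miR-484 by -1.53 ± 0.24 (log2, SE; adjusted p 0.00125, limma). Both stayed lower in A549 under the scalings tried, by 0.87 and 0.73 with TMM factors (adjusted p 0.0458 and 0.0318, limma). With totals without miR-21-5p and miR-148a-3p neither was called (-0.90 and -0.61, adjusted p 0.0759 and 0.0769, limma). With DESeq2 size factors miR-877-5p was not called (-0.96, adjusted p 0.0546, limma) and miR-484 was (-0.84, adjusted p 0.0473, limma). EdgeR called neither (adjusted p 0.127 and 0.085) and DESeq2 called miR-484 alone (adjusted p 0.147 and 0.0463). The difference of miR-320a, -0.73 ± 0.18 (log2, SE; adjusted p 0.00999, limma), turned to 0.07 with TMM factors (adjusted p 0.804, limma) and missed the threshold without A549 replicate 1 (adjusted p 0.0593, limma). MiR-320b went the other way, with 0.22 ± 0.23 on CPM (adjusted p 0.457, limma) and 1.01 with TMM factors (adjusted p 0.0062, limma). The median of all tested miRNAs was -0.47 on CPM and 0 with TMM factors, against -0.65 for the members on CPM.

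ES2 and MV3 had the fewest calls among the members. MiR-320c alone was called, lower in ES2 by 1.09 ± 0.28 (log2, SE; adjusted p 0.0201, limma), where 32.8% of all tested were called, 8.97% as higher in ES2 and 23.8% as higher in MV3. The call was lost with TMM factors (-0.61, adjusted p 0.182, limma) and without ES2 replicate 1, ES2 replicate 2 or MV3 replicate 2 (adjusted p 0.0636, 0.0719 and 0.101, limma). MiR-320a was close to the threshold with -0.53 ± 0.18 (adjusted p 0.0577, limma) and was called without either A549 library (adjusted p 0.0394 and 0.0397, limma), while miR-320d was called without BE(2)C replicate 1 (adjusted p 0.0499, limma). MiR-484 and miR-877-5p differed by -0.24 ± 0.24 and 0.31 ± 0.32 (adjusted p 0.513 and 0.537, limma). The median was -0.52 over the members and -0.36 over all tested.

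BE(2)C and HepG2, the Novogene lines, lay furthest apart. If BE(2)C was harvested at 24 h, as the protocol gives, harvest time and line cannot be told apart in this contrast. All 6 members were called as higher in BE(2)C on CPM, where 83% of all tested were called, 74.7% in this direction and 8.24% as higher in HepG2. The differences lay between 2.49 ± 0.32 for miR-877-5p (log2, SE; adjusted p 0.00016, limma) and 4.55 ± 0.23 for miR-320b (log2, SE; adjusted p 6.63e-07, limma). Since the median of all tested miRNAs was itself shifted by 2.79 on CPM and by 0.49 with TMM factors, the members are better read against it. The order among members depended on the pseudocount: miR-320b differed by 4.62 and miR-320c by 4.89 with 0.5, and miR-320d, with 2 and 6 reads in HepG2, by 3.59 with 1 and 1.91 with 5. With TMM factors, miR-320c, miR-320d and miR-320b stayed higher in BE(2)C by 2.24, 2.07 and 1.66, whereas miR-484 and miR-320a differed by 0.69 and 0.59, close to the median. MiR-877-5p differed by -0.28 (adjusted p 0.447, limma) and by -1.33 after quantile normalization (adjusted p 0.00548, limma). MiR-320c and miR-320d were called in BE(2)C under each scaling, whereas the direction of miR-877-5p turned. MiR-320b, miR-484 and miR-320a were called with DESeq2 size factors (2.24, 1.27 and 1.17). After quantile normalization miR-320b was not called (0.35, adjusted p 0.318, limma). With totals without miR-21-5p and miR-148a-3p, miR-484 and miR-320a were not called (0.13 and 0.02, adjusted p 0.678 and 0.934, limma).

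**Figure D4:**
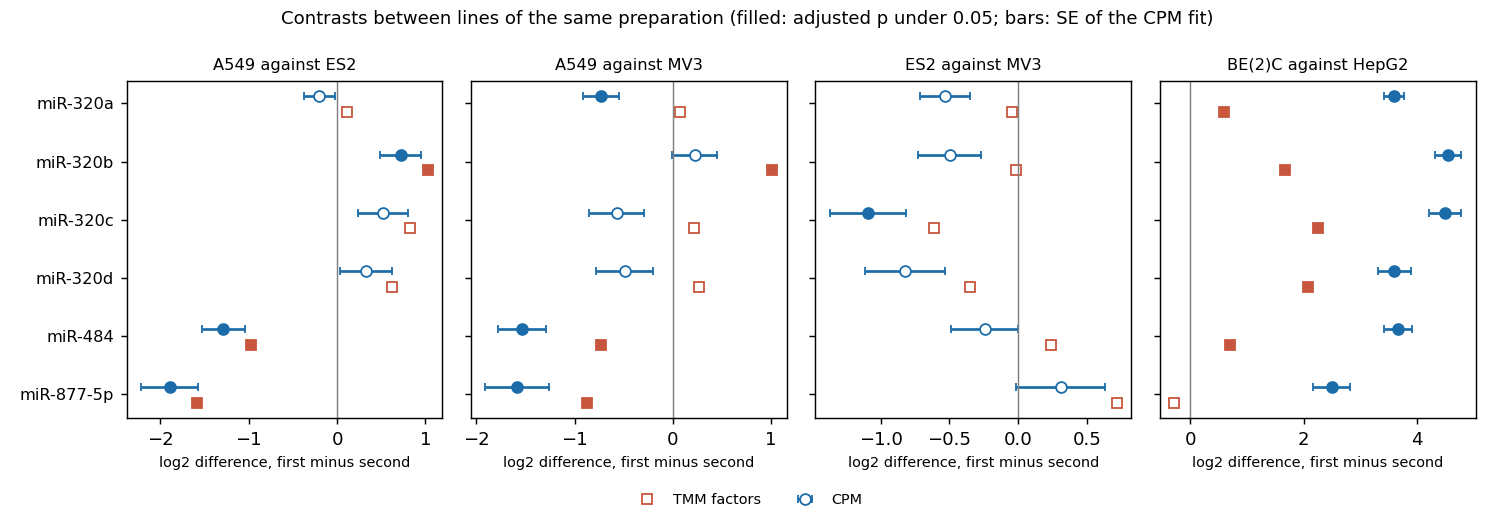
Log2 difference, first line minus second, of each member in the 4 contrasts, on CPM (circles, with SE) and with TMM factors (squares), filled where the limma adjusted p is under 0.05. MiR-484 and miR-877-5p lie below 0 in both A549 contrasts on either scale, and in BE(2)C against HepG2 the squares lie between -0.28 and 2.24 where the circles lie between 2.49 and 4.55.

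The same dependence is seen in the line means. On CPM the miR-320 family sum was highest in BE(2)C with 5068 ± 298 and lowest in HepG2 with 406 ± 57.8 CPM (SD, n = 2 each). MV3 had 4881 ± 7.60, ES2 3359 ± 60.3 and A549 3052 ± 630 CPM (SD, n = 2 each), and PANC1 1199 CPM. With TMM factors, HepG2 had 2127 ± 97.6 (SD, n = 2) and PANC1 was lowest with 679. The NEXTflex lines other than PANC1 then lay between 2543 and 2862.

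**Figure D5:**
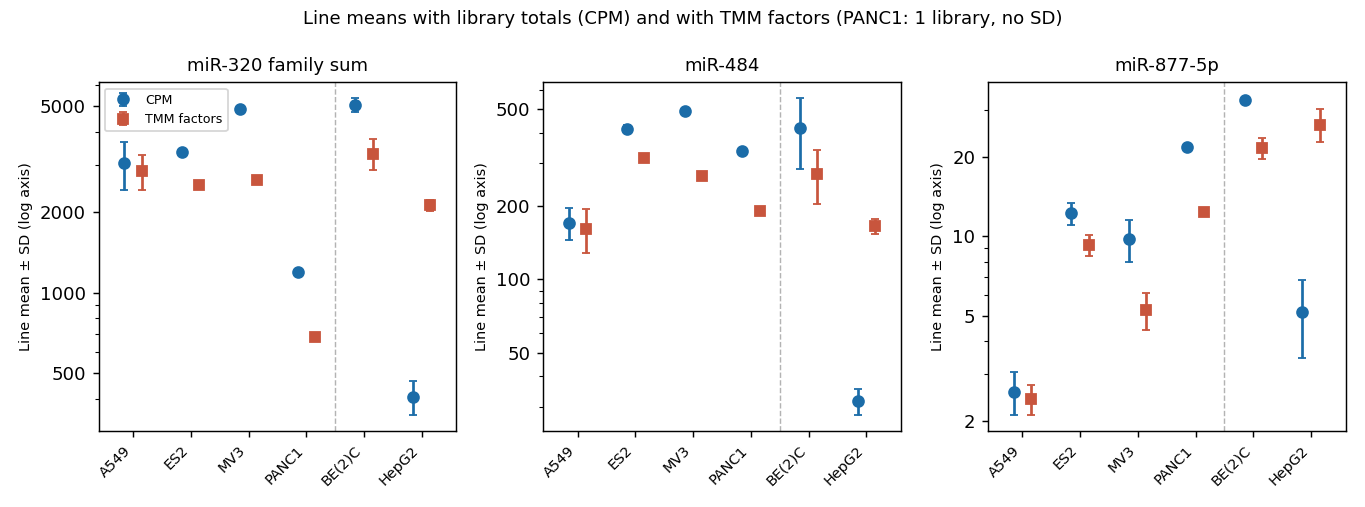
Line means with SD on a log axis for the miR-320 family sum, miR-484 and miR-877-5p, with library totals (CPM, circles) and with TMM factors (squares). HepG2 rises from 406 to 2127 for the family and from 5.15 to 26.5 for miR-877-5p, while PANC1 stays below the other NEXTflex lines for the family on both scales.

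Across the 6 line means, which share the library total as a denominator, the miR-320 members had Pearson's r between 0.914 and 0.986 with each other. MiR-484 had r between 0.757 and 0.895 with them, whereas miR-877-5p had 0.208 to 0.299 with the miR-320 members and 0.588 with miR-484. On CPM the mirtron product thus followed the others least. HepG2 was the lowest line on this scale for the miR-320 members and miR-484 but not for miR-877-5p. With TMM factors miR-320a was lowest in PANC1 (652) and miR-484 in A549 (162), and no r was computed with these factors. Among 540 other tested miRNAs, those most like the family sum were miR-18a-3p (r = 0.954), miR-125b-2-3p (0.940) and miR-2355-3p (0.932). Most like miR-484 were miR-125b-1-3p (0.996), miR-107 (0.996) and miR-324-5p (0.995), and 18 of the 540 exceeded 0.95. For miR-877-5p the nearest were miR-4443 (0.965), miR-326 (0.920) and miR-340-5p (0.918). These values rest on 6 points each and are given as a description.

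Other miRNAs described as mirtron products or miR-320 relatives were mostly near the floor. Of 23 listed, 5 had 0 reads in every library and 3 reached a line mean of 10 CPM, namely miR-1226-3p, miR-1228-3p and miR-1229-3p, which passed the limma F test across the 6 lines and across the NEXTflex lines (3 of 3, where 99.3% and 85.4% of all tested did). MiR-1226-3p had 65.6 and 55.5 CPM in MV3, 64.6 CPM in PANC1 and 16.5 and 28.7 CPM in BE(2)C. It had 13.8 and 15.3 CPM in ES2, 3.0 and 3.88 CPM in A549 and 0.673 and 1.15 CPM in HepG2. PANC1 was among the high lines for miR-1226-3p and A549 the lowest NEXTflex line. MiR-1228-3p had 14.5 and 31.0 CPM in MV3, 5.99 and 2.43 CPM in A549, 0 and 3.49 CPM in ES2, 0 CPM in PANC1 and at most 0.798 CPM in BE(2)C and HepG2. MiR-1229-3p had 17.9 and 8.39 CPM in MV3, 4.41 CPM in PANC1, 4.21 and 2.61 CPM in ES2, 0.749 and 2.43 CPM in A549, 2.39 and 2.60 CPM in BE(2)C and at most 0.165 CPM in HepG2. MiR-1228-3p and miR-1229-3p reached a mean of 10 CPM in MV3 only (22.7 and 13.1 CPM). The filter that named them thus fixed MV3 as their highest line, and their F tests give no separate support for a difference. PANC1 and A549 were not ordered alike for the 3 miRNAs. MiR-877-3p, the other strand of the miR-877 hairpin, reached at most a line mean of 2.18 CPM (BE(2)C), and miR-320e at most 3.8 CPM (PANC1).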

How the data were processed

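Small RNA-seq levels of miRNAs were analysed in 11 libraries of 6 cell lines, grouped by the cell line label. For PANC1 the authors deposited CPM. For the other 5 lines the deposited values were a scaled signal, CPM divided by factors set within each table. Per the labels, processing used cutadapt 1.14, Bowtie2 2.3.2 (hg38), SAMtools 1.5, featureCounts 1.5.3 and edgeR 3.30.3. Nonzero values were whole multiples of the value of 1 read in 100% of cases (tolerance 0.001 reads), so reads were recovered, rows of one name were summed, and CPM was recomputed per library. Where 1 or more lines averaged 10 CPM or more, a miRNA entered the tests on log2(CPM + 1), a scale that understates changes of low miRNAs, with limma 3.58.1 in R 4.3.3 (cell line as sole factor, eBayes with trend, Benjamini-Hochberg adjustment over all tested miRNAs, threshold 0.05, two-sided contrasts in 1 fit of all 11 libraries, F tests across 6 lines or the 7 NEXTflex libraries). On the recovered reads, edgeR 4.0.16 called 524 miRNAs across the 6 lines and DESeq2 1.42.0 called 479. Fits were tested on simulated data. Alternatives were other scalings, filters, pseudocounts, tools, copies and left-out libraries. The members, the lists and the rule for named miRNAs (the members, listed relatives reaching 10 CPM, and the 3 most alike) were chosen with earlier results of these data known.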

Additional observations from a re-analysis of the deposited data

How the results depend on the processing

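Of 846 recomputed member tests, 749 kept their side of the threshold and, for contrasts, their direction. Of the rest, 50 lost a call, 15 gained a call and 32 reversed in sign. Left-out libraries gave 372 of these tests, with 351 unchanged and 1 reversed. The other settings gave 474, with 398 unchanged and 31 reversed. Many tests could not reverse, since F tests have no direction. A contrast's estimate also stays the same when the left-out library is from a line outside it or only the filter changes. Causes were not tested except where stated. With a minimum of 100 CPM only 3 members were tested, and 3 were called in both F tests and in BE(2)C against HepG2. Across all miRNAs, calls over the 6 lines went from 542 to 837 without a filter and 313 with the 100 CPM filter, in the NEXTflex lines from 387 to 230 with that filter, and in BE(2)C against HepG2 from 453 to 691 and 285. The filter also sets which miRNAs are tested.

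Other scalings and tools moved the calls among members as follows. A549 against ES2 had 5 instead of 3 with totals without miR-21-5p and miR-148a-3p, and 2 with quantile normalization. A549 against MV3 had 1 instead of 3 with these totals and with edgeR, and 2 with DESeq2 size factors, quantile normalization and DESeq2. ES2 against MV3 had 0 instead of 1 with TMM factors, DESeq2 size factors, quantile normalization, edgeR and DESeq2, 2 with the reduced totals and with a pseudocount of 5, and 3 in a fit of the same preparation. Where 0 were called, 1 member had an unadjusted p under 0.05 in the limma fits with TMM factors, DESeq2 size factors or quantile normalization and in DESeq2, and 0 had one in edgeR. BE(2)C against HepG2 had 3 instead of 6 with quantile normalization, reduced totals and edgeR, and 5 with TMM factors, DESeq2 size factors and DESeq2. The NEXTflex lines had 4 instead of 6 with edgeR and DESeq2.

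Signs turned in A549 against ES2 for miR-320a, to 0.12 with TMM factors, 0.14 with DESeq2 size factors, 0.83 with reduced totals, 0.13 with edgeR, 0.14 with DESeq2 and 0.022 without A549 replicate 1 (-0.42 without replicate 2), and after quantile normalization for miR-320c (-0.034) and miR-320d (-0.18). In A549 against MV3, miR-320a turned to 0.069 with TMM factors, 0.20 with reduced totals and 0.078 with edgeR. MiR-320c turned to 0.21 (TMM factors), 0.11 (DESeq2 size factors), 0.34 (reduced totals), 0.21 (edgeR) and 0.095 (DESeq2), and miR-320d to 0.27, 0.17, 0.40, 0.30 and 0.20 in the same order. In ES2 against MV3, miR-484 turned to 0.24 (TMM factors), 0.11 (DESeq2 size factors), 0.24 (edgeR) and 0.12 (DESeq2), and miR-320a to 0.072 after quantile normalization. In BE(2)C against HepG2, miR-877-5p turned to -0.28 (TMM factors), -1.33 (quantile normalization), -0.84 (reduced totals) and -0.30 (edgeR), and after quantile normalization miR-320a to -0.043 and miR-484 to -0.50.

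The log2 span from the lowest line to the highest, on CPM 3.64 for the miR-320 family, 3.97 for miR-484 and 3.67 for miR-877-5p, was 2.29, 2.76, 2.23 and 2.26 for the family with TMM factors, DESeq2 size factors, quantile normalization and reduced totals. For miR-484 it was 0.96, 1.33, 1.39 and 0.94, and 4.18 with the highest genomic copy, and for miR-877-5p 3.17 (quantile normalization) and 3.09 (reduced totals). In the NEXTflex lines it was 2.03 for the family on CPM, with 2.08, 2.25, 2.23 and 2.26 under the same scalings and 2.01 with the highest copy, 1.53 for miR-484 with 0.96, 0.94, 1.12 and 0.60, and 3.08 for miR-877-5p with 2.36, 2.17, 2.21 and 2.18. The median SD over members was 1.07, 1.12, 0.94 and 1.06 in place of 1.51.

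When single libraries were left out, 6 members were called each time across the 6 lines and in BE(2)C against HepG2 and 5 in the NEXTflex lines, and the count ranged from 2 to 3 for A549 against ES2 and against MV3 and from 0 to 2 for ES2 against MV3. The log2 spans ranged from 3.5 to 3.8 (family), 3.85 to 4.10 (miR-484) and 3.5 to 3.87 (miR-877-5p), in the NEXTflex lines from 0.68 to 2.03, 1.38 to 1.69 and 2.25 to 3.28, the lowest for the family being without PANC1, and the median SD from 1.46 to 1.68.

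Replicate numbers shared across lines did not pair the libraries: 1 of 10 correlations of same-numbered deviations exceeded 0.1 (-0.0531 to 0.109). With the replicate number as a block, 5 instead of 6 members were called in the NEXTflex lines (miR-320d, adjusted p 0.112, limma), and no other member's call changed. Low read counts limit miR-320c and miR-320d in HepG2 and miR-877-5p in A549, at 2 to 12 reads. For HepG2 this was not a matter of depth, since its libraries were the deepest (11880964 and 12137452 reads).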
